A study of Mus musculus with 8 samples.

Results

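The genes described here encode 10 proteins that set how long cytokine mRNAs last: Zfp36, Zfp36l1, Zfp36l2, Zc3h12a, Zc3h12c, Rc3h1, Rc3h2, Elavl1, Khsrp and Arid5a. They were looked up in the deposited count table by Ensembl identifier, with symbols from GENCODE vM21, and all 10 were found among 52636 listed genes and passed the filter on low counts that left 13847 genes for testing. The cells were primary microglia from wild-type mice, C57BL/6 in the labels and C57BL/6N pups in the methods, shaken off mixed glial cultures that had been grown from neonatal brains on a bed of astrocytes, and kept in medium with 10% FBS and 10 ng/ml CSF-1, the factor that keeps microglia alive in culture. They received vehicle or 5 µg/ml lipopolysaccharide (LPS), a component of the outer membrane of bacteria that activates Toll-like receptor signalling, for 24 h, and 4 RNA libraries were made per group. All cells carried the same genotype. Library totals ranged from 20071921 to 30604447 counts. The libraries are called biological replicates and numbered 1 to 4, and the sources used here do not say which of them share a starting culture, so the p-values measure the spread between these libraries.

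Many cytokine mRNAs carry short elements in the 3′UTR, the stretch after the stop codon, that shorten their life. Tristetraprolin (TTP, encoded by Zfp36) and its relatives bind AU-rich elements and bring in the CCR4-NOT complex, which removes the poly(A) tail, while the Regnases cut stem-loops in the same class of transcripts and the Roquins recognise such stem-loops and recruit deadenylation. HuR (Elavl1) and Arid5a work in the other direction and protect transcripts, and in macrophages and microglia the balance between both sides sets how strongly and how long an inflammatory stimulus is answered.

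The element itself can be read in the reference transcripts. The heptamer TATTTAT, the core of the AU-rich element, was counted in the 3′UTR of 1 GENCODE vM21 transcript per gene (GRCm38), and 29.6% of 11855 tested genes held at least 1 copy while 3.92% held at least 3. Copies that overlap were counted separately. Of 18 known target transcripts, 13 held the heptamer and 8 held at least 3 copies. Csf2 (9) and Tnf (8), the classical TTP target, held the most. Ccl3, Il6 and Il12b held 1 each, and Nfkbiz, Nfkbid, Icos, Tnfrsf4 and Stat3 held none. Of the 10 regulators, 7 carried the heptamer themselves, and 5 of these carried at least 3 copies. Long 3′UTRs hold more copies by their length. Among tested genes with a 3′UTR of similar length (0.5 to 2 times), as many copies were found in 0.164% for Elavl1 (4218 bases), 1.29% for Zfp36 (774 bases), 4.33% for Zfp36l1 and 4.24% for Zfp36l2, but in 12.5% for Rc3h2 (5160 bases), 23.3% for Zc3h12c (4062 bases) and 35.9% for Rc3h1 (7181 bases). Zfp36, Zfp36l1, Zfp36l2 and Rc3h2 each held 3, Elavl1 held 8, Zc3h12c and Rc3h1 each held 2, and none was found in Zc3h12a, Khsrp or Arid5a. The longer form TTATTTATT, present in 7.84% of tested genes, occurred 8 times in Elavl1 and once each in Zfp36, Zfp36l1, Zfp36l2, Rc3h1 and Rc3h2. A match is a description of the letters and does not show that a protein binds there. The windows below show 29 bases of the targets Tnf and Csf2 and of the TTP genes and Elavl1, 5′ to 3′ on the transcribed strand, with each copy of the heptamer in capitals.
Tnf, chr17:35199678-35199706, minus strand: TATTTATTATTTATTTATTATTTATTTAT
Csf2, chr11:54247326-54247354, minus strand: taaaTATTTATTTATTTATTTATTTATtt
Zfp36, chr7:28376959-28376987, minus strand: ccttTATTTATgacgacttTATTTATtgt
Zfp36l1, chr12:80108422-80108450, minus strand: ttatcaaaacgTATTTATtgccaaactat
Zfp36l2, chr17:84184914-84184942, minus strand: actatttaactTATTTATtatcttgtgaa
Elavl1, chr8:4285777-4285805, minus strand: TATTTATTTATTTATTTATtttTATTTAT

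The libraries were checked before the levels were compared. Summed over 10 microglial markers, the level was 7910 to 10200 CPM (counts scaled to a common library size after TMM, a scaling that sets the typical gene to no change) in vehicle and 2270 to 2870 CPM in LPS libraries, with 8 of 10 lower. Astrocyte markers summed to 20.5 to 46.6 and 41.0 to 124 CPM, but only Gja1 of the 8 was higher (0.873 ± 0.221 to 48.6 ± 33.2 CPM, SD, n = 4) and Gfap, Aqp4 and Aldh1l1 were lower. Oligodendrocyte lineage markers were at 92.9 to 146 and 17.6 to 23.5 CPM, with 4 of 6 tested lower. Most of this sum was Mbp (84.0 ± 15.7 to 15.3 ± 3.54 CPM). Endothelial markers were at 37.1 to 83.4 and 196 to 272 CPM, with 3 of 4 tested higher and Cldn5 at 0. The largest part of that sum was Flt1 (48.6 ± 23.6 to 165 ± 52.9 CPM). Fibroblast and mural markers summed to 0.497 to 4.31 and 5.30 to 21.4 CPM, and the rise was mostly Dcn (0.136 ± 0.0886 to 8.90 ± 7.07 CPM). Lum also had a higher mean (0.0396 ± 0.0793 to 0.545 ± 0.585 CPM), while Col1a1, Col1a2, Col3a1 and Pdgfrb had lower means after LPS. With no filter on low counts, 2 of these 6 genes were called higher and 1 lower. Of all genes that passed the filter 30.3% were higher and 33.8% lower after LPS. The part of these marker shifts in the changes of the 10 genes was not tested. LPS replicate 3 stood apart from the other LPS libraries, with a chi-square per degree of freedom of 111 to 159 against 7.05 to 64.3 among the others. Without both libraries numbered 3, the 7 regulators called below kept their call and Rc3h1 joined them. The log2 change was then 2.82 for Zfp36, -1.43 for Zfp36l1, 3.03 for Arid5a and -0.34 for Khsrp, against 2.69, -1.71, 2.59 and -0.53 with all libraries.

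After 24 h of LPS the 3 genes of the TTP family went in opposite directions, with Zfp36 rising and Zfp36l1 and Zfp36l2 falling, and Zc3h12a, Zc3h12c and Arid5a rose. Khsrp fell slightly. The levels of Rc3h1, Rc3h2 and Elavl1 overlapped between the groups and did not pass the test. Of the 10 genes, 4 were higher, 3 were lower and 3 were not called at an adjusted p under 0.05 (edgeR quasi-likelihood test, Benjamini-Hochberg over all tested genes). Calls were common in this comparison: 64.1% of all tested genes passed, 30.3% higher and 33.8% lower after LPS, and 60.2% had no overlap between the groups, against 7 of the 10 regulators. The median log2 change was 0.18 over the 10 genes and -0.11 over all tested genes. The counts split into 4191 higher and 4686 lower genes after TMM scaling, but into 1988 higher and 8457 lower genes when libraries were scaled by their totals alone. Scaling by totals moved the median of all genes by -0.68 on the log2 scale, so the smaller changes below are relative to the TMM scale.

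**Figure D1:**
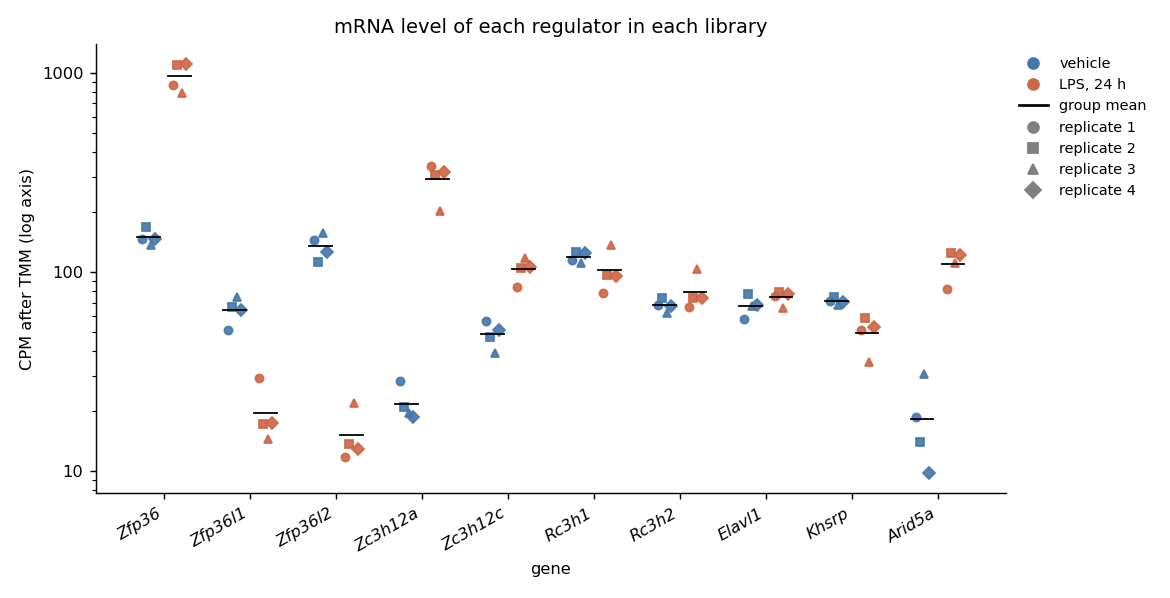
Level of each of the 10 genes in each library, in CPM (counts scaled to a common library size after TMM) on a log axis, with vehicle in blue, LPS in orange, symbols for the replicate numbers and black lines for group means. The LPS points of Zfp36, Zc3h12a, Zc3h12c and Arid5a lie above all vehicle points, those of Zfp36l1, Zfp36l2 and Khsrp lie below them, and Rc3h1, Rc3h2 and Elavl1 overlap.

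Zfp36 (ENSMUSG00000044786, chr7:28376784-28380253, minus strand) encodes TTP, the protein that bridges AU-rich elements and the deadenylase. Its level was 146, 167, 136 and 146 CPM in vehicle replicates 1 to 4 and 871, 1090, 787 and 1100 CPM in LPS replicates 1 to 4. All LPS libraries were far above all vehicle libraries, and LPS replicate 3 was the lowest of them. The log2 change was 2.69 ± 0.15 (SE, n = 4 per group, edgeR adjusted p = 7.38e-07), a 6.47-fold rise, and its 95% interval ran from 2.35 to 3.04. A change of at least this size was found in 9.98% of tested genes.

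Zfp36l2 (ENSMUSG00000045817, chr17:84183931-84187947, minus strand), a TTP relative with the same tandem zinc fingers, had the steepest fall of the 10 genes. It was at 144, 112, 156 and 126 CPM in vehicle and at 11.7, 13.7, 22 and 12.9 CPM in LPS libraries. The highest LPS value, in replicate 3, was still well below the lowest vehicle value. LPS changed it by -3.15 ± 0.21 on the log2 scale (SE, n = 4 per group, edgeR adjusted p = 1.94e-06), which is 8.89-fold lower.

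Zfp36l1 (ENSMUSG00000021127, chr12:80107754-80113013, minus strand), the remaining gene of the 3, was at 51.2, 66.4, 74.3 and 64.1 CPM in vehicle and at 29.3, 17.2, 14.4 and 17.4 CPM in LPS libraries. The groups did not overlap, and LPS replicate 1 stood closest to the vehicle libraries. This was a change of -1.71 ± 0.22 on the log2 scale (SE, n = 4 per group, edgeR adjusted p = 9.71e-05), which is 3.28-fold lower. A lincRNA on the other strand, Gm26669, covers 55.9% of the exonic bases of Zfp36l1, and whether counting used strand is not stated. Gm26669 itself had 14, 24, 14 and 24 counts in vehicle and 4, 3, 0 and 1 in LPS libraries, against 1462 to 2344 and 309 to 489 counts of Zfp36l1. A pseudogene, Zfp36l1-ps, shares 3.12% of the 50-base windows of Zfp36l1 and had 1 count in vehicle replicate 1 and 0 in the other libraries. In bulk RNA, fewer cells of a kind and less RNA per cell cannot be told apart for this or any other fall.

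Within a library the ratio of 2 genes does not depend on how libraries are scaled. The log2 ratio of Zfp36l2 to Zfp36 counts was -0.03, -0.58, 0.20 and -0.21 in vehicle and -6.22, -6.32, -5.16 and -6.41 in LPS libraries. The groups were separated by more than 4 units, with LPS replicate 3 nearest to vehicle. The mean difference was -5.87, a 58.5-fold lower ratio (two-sided exact permutation over 70 divisions of the libraries, p = 0.0286, adjusted over 6 pairs 0.0343, where 0.0286 is the smallest p possible). The ratio of Zfp36l1 to Zfp36 fell 21.6-fold (mean log2 difference -4.43), with the same p. In both pairs the 2 genes had already separated the groups in opposite directions. These p-values follow from that and add no further evidence. When same-numbered libraries were taken as pairs, sign flips of 4 pairs gave an exact p of 0.125, the smallest they allow, for these and all other ratios below.

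Counted per length of transcript, the family changed from a mixture into almost a single gene. In vehicle libraries Zfp36 made up 47.4% ± 4.62 (SD, n = 4) of the summed CPM per kb of the 3 genes, Zfp36l2 33.7% ± 4.47 and Zfp36l1 18.9% ± 2.40. In LPS libraries Zfp36 made up 96.9% ± 0.889, with 1.88% ± 0.759 left for Zfp36l1 and 1.25% ± 0.585 for Zfp36l2. The sum of the 3 genes was 113 ± 3.63 CPM per kb in vehicle and 356 ± 55.8 in LPS libraries.

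**Figure D2:**
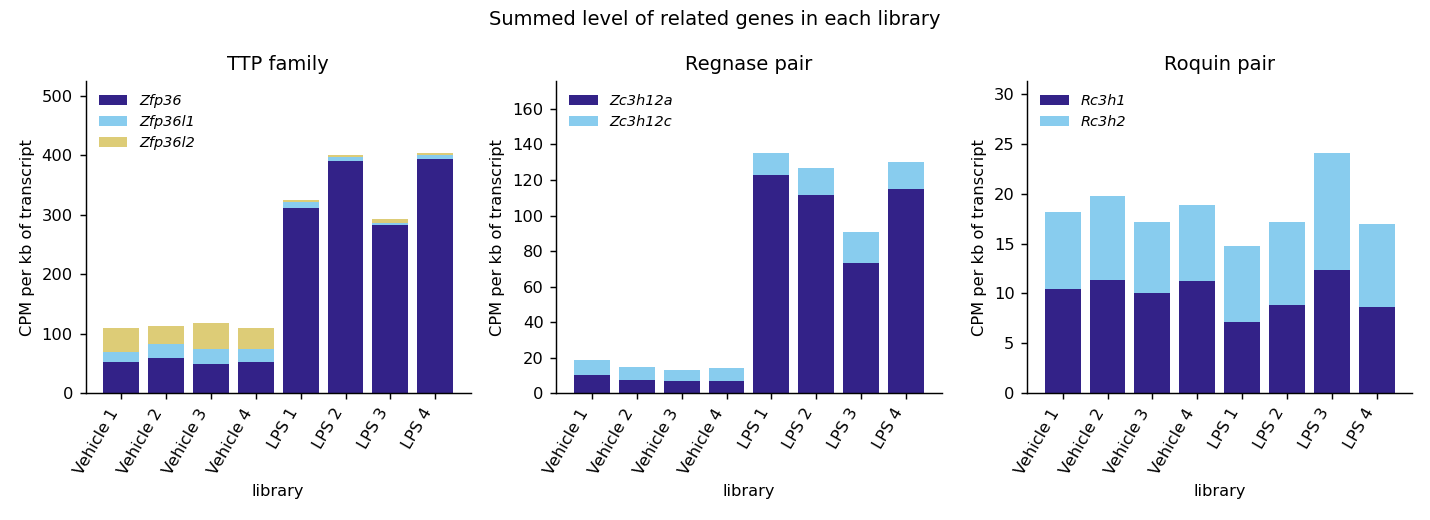
Summed level in CPM per kb of transcript of the TTP family, the Regnase pair and the Roquin pair in each of the 8 libraries, with 1 colour per gene and bars starting at 0. The TTP family bars rise from between 110 and 118 in vehicle to between 293 and 404 in LPS libraries and are then almost all Zfp36, while the Roquin bars stay at a similar height apart from LPS replicate 3.

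The Regnases cut mRNA. Zc3h12a (ENSMUSG00000042677, chr4:125118423-125127840, minus strand) encodes Regnase-1, the endoribonuclease that cleaves Il6 and its own mRNA, and showed the largest rise of the 10 genes. It was at 28.1, 20.9, 19.4 and 18.7 CPM in vehicle and at 338, 307, 202 and 316 CPM in LPS libraries. Every LPS library was far above every vehicle library, and LPS replicate 3 was again the lowest. The rise was 3.74 ± 0.21 on the log2 scale (SE, n = 4 per group, edgeR adjusted p = 6.44e-07), or 13.4-fold, and 5.34% of tested genes changed by at least as much.

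Zc3h12c (ENSMUSG00000035164, chr9:52111344-52168572, minus strand) encodes Regnase-3, a relative found in macrophages. It was at 56.7, 47.1, 39.1 and 51.1 CPM in vehicle and at 84.2, 104, 117 and 106 CPM in LPS libraries, so the groups were apart by less than for Zc3h12a. The rise was 1.08 ± 0.14 on the log2 scale (SE, n = 4 per group, edgeR adjusted p = 0.000115), or 2.12-fold, and it was 0.40 when libraries were scaled by their totals. The ratio of Zc3h12c to Zc3h12a fell 6.25-fold (mean log2 difference -2.64, two-sided exact permutation p = 0.0286, adjusted 0.0343). Per length of transcript, Zc3h12a was 52.3% ± 3.59 (SD, n = 4) of the pair in vehicle and 86.9% ± 4.23 in LPS libraries, and the sum of the pair was 15.1 ± 2.46 and 121 ± 20.3 CPM per kb.

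The Roquins, RING-finger proteins that recognise stem-loops and recruit deadenylases, had levels that overlapped between the groups. Rc3h1 (Roquin-1, ENSMUSG00000040423, chr1:160906418-160974978, plus strand) was at 115, 125, 111 and 124 CPM in vehicle and at 78.4, 96.8, 136 and 95 CPM in LPS libraries. LPS replicate 3 was the highest of all 8 libraries, and the other LPS libraries were below every vehicle library. On the log2 scale Rc3h1 changed by -0.23 with a 95% interval of -0.58 to 0.13 (edgeR adjusted p = 0.228), and by -0.39 and called without LPS replicate 3 (edgeR adjusted p = 0.00747).

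Rc3h2 (Roquin-2, ENSMUSG00000075376, chr2:37370069-37422903, minus strand) was at 67.7, 74.1, 61.9 and 67.0 CPM in vehicle and at 66.8, 73.4, 103 and 73.5 CPM in LPS libraries. Apart from LPS replicate 3 the LPS values lay within the vehicle range. Its log2 change of 0.23 had a 95% interval of -0.09 to 0.54 (edgeR adjusted p = 0.18), and turned to -0.47 when libraries were scaled by their totals (edgeR adjusted p = 0.00405).

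The ratio between the Roquins was closer among replicates than the level of either gene. The log2 ratio of Rc3h2 to Rc3h1 was -0.76, -0.75, -0.85 and -0.89 in vehicle and -0.23, -0.40, -0.40 and -0.37 in LPS libraries. All LPS libraries, replicate 3 included, were above all vehicle libraries. The mean difference was 0.46, a 1.38-fold higher ratio (two-sided exact permutation p = 0.0286, adjusted 0.0343). Per length of transcript Rc3h1 was 58.4% ± 1.17 (SD, n = 4) of the pair in vehicle and 50.5% ± 1.38 in LPS libraries.

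**Figure D3:**
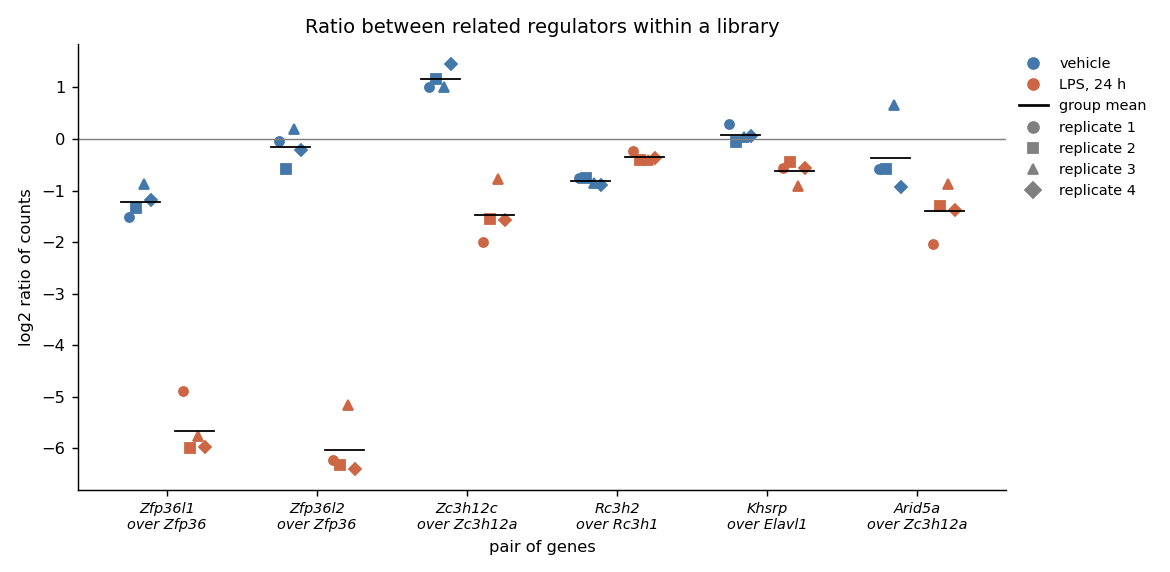
Log2 ratio of counts between related or functionally paired genes in each library, with vehicle in blue, LPS in orange, symbols for the replicate numbers and black lines for group means. The groups do not overlap for 5 of the 6 pairs, and they overlap for Arid5a over Zc3h12a.

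HuR and KSRP both bind AU-rich elements, the former protecting transcripts and the latter promoting their decay. Elavl1 (HuR, ENSMUSG00000040028, chr8:4285382-4325413, minus strand) was at 58.0, 77.2, 67.1 and 68.1 CPM in vehicle and at 75.6, 79.2, 65.7 and 77.5 CPM in LPS libraries. The values were interleaved. For Elavl1 the log2 change was 0.14 with a 95% interval of -0.11 to 0.39 (edgeR adjusted p = 0.288), and it was -0.01 after upper quartile scaling and -0.53 with library totals (edgeR adjusted p = 0.00633).

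Khsrp (KSRP, ENSMUSG00000007670, chr17:57021051-57031522, minus strand) was at 71.5, 74.5, 68.3 and 70.3 CPM in vehicle and at 50.7, 58.5, 35.1 and 52.7 CPM in LPS libraries. The vehicle values were close together, and all LPS values were below them, that of replicate 3 the lowest. Khsrp changed by -0.53 ± 0.15 on the log2 scale (SE, n = 4 per group, edgeR adjusted p = 0.0095), which is 1.45-fold lower, and it was -0.34 without both libraries numbered 3. The ratio of Khsrp to Elavl1 fell 1.62-fold (mean log2 difference -0.70, two-sided exact permutation p = 0.0286, adjusted 0.0343).

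Arid5a (ENSMUSG00000037447, chr1:36307733-36324029, plus strand) encodes an RNA-binding protein that shields Il6 and Stat3 mRNA from Regnase-1. It was the least abundant of the 10 genes per length in vehicle and the most variable, at 18.7, 13.9, 30.5 and 9.76 CPM, and it was at 81.8, 124, 111 and 122 CPM in LPS libraries. Every LPS library was above every vehicle library. LPS changed it by 2.59 ± 0.32 on the log2 scale (SE, n = 4 per group, edgeR adjusted p = 7.95e-05), a 6.02-fold rise. Its log2 ratio to Zc3h12a, the gene of the enzyme it opposes, was -0.59, -0.59, 0.65 and -0.93 in vehicle and -2.04, -1.30, -0.87 and -1.38 in LPS libraries. These overlapped through vehicle replicate 4 and LPS replicate 3. The mean difference of -1.03 did not pass the test (two-sided exact permutation p = 0.0571, adjusted 0.0571).

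**Figure D4:**
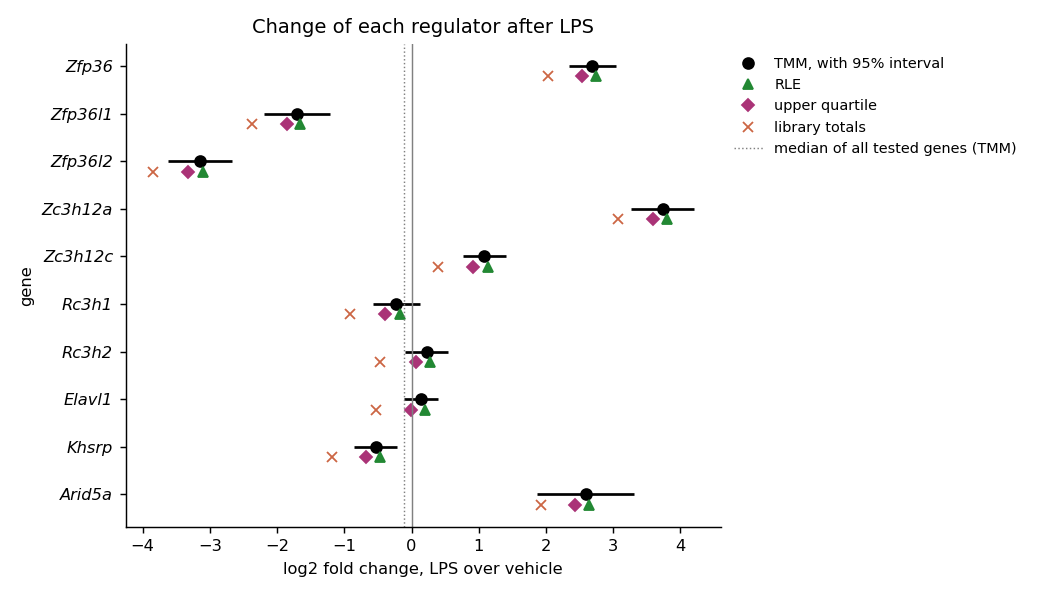
Log2 fold change of each gene, LPS over vehicle, with black points and lines for the TMM estimate and its 95% interval, and coloured symbols for the same change after RLE, upper quartile and library total scaling. The signs of Zfp36, Zfp36l1, Zfp36l2, Zc3h12a, Zc3h12c, Khsrp and Arid5a hold under every scaling shown, whereas Rc3h2 and Elavl1 change sign under library totals, and Elavl1 lies at -0.01 under upper quartile scaling.

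Compared per length, the order of the genes changed with treatment. In vehicle libraries Zfp36 (53.4 ± 4.71 CPM per kb, SD, n = 4) was followed by Zfp36l2 (38.0 ± 5.44) and Zfp36l1 (21.4 ± 3.22), with no overlap of libraries at either step. Zfp36l1 overlapped with Khsrp (17.9 ± 0.65), which was above Elavl1 (11.8 ± 1.37) in every library. From there each neighbour overlapped with the next, down through Rc3h1, Zc3h12a, Rc3h2 and Zc3h12c to Arid5a (3.92 ± 1.93). In LPS libraries Zfp36 (345 ± 57), Zc3h12a (106 ± 22) and Arid5a (23.6 ± 4.20) led without overlap between neighbours, and Zfp36l1 (6.54 ± 2.21) and Zfp36l2 (4.27 ± 1.33) were last, with overlap at each step from Zc3h12c down. When all annotated exons of a gene were taken as its length instead of 1 transcript, Zfp36 and Zc3h12a stayed first and second in LPS libraries, whereas Arid5a came 6th.

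Genes whose level followed that of a regulator most closely over the 8 libraries were found by the root mean square difference of centred log2 CPM among 8381 genes. Nearest to Zfp36 were Kdm6b (0.16), which encodes a histone H3 demethylase, Cep83 (0.17) and Stard7 (0.19). Nearest to Zc3h12a were Nfkbiz (0.16), which encodes the nuclear protein IκBζ and is itself a Regnase-1 target, Dtx2 (0.19) and Tnip1 (0.20). Nearest to Arid5a were Nod1 (0.21), a sensor of bacterial peptidoglycan, B4galt5 (0.24) and Sirpb1a (0.25). The values are a description of likeness over libraries of 2 treatments.

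The start of Zfp36 holds a known element. A CArG box, the site of serum response factor, was found in 1.63% of 32851 RefSeq promoters of 300 bases, and among the regulators in that of Zfp36 alone. The stretch of 100 bases before the RefSeq start of Zfp36 (GRCm38.p6, chr7:28379229-28379328, minus strand, 1025 bases inside the longer GENCODE gene) is given 5′ to 3′ with the CArG box in capitals.
Zfp36: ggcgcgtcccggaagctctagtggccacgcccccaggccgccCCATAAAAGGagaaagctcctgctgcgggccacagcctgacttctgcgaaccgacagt
An AP-1 site, TGANTCA on either strand, was found in the promoters of Zfp36l1 and Rc3h1 and in 7.81% of all promoters, and a kappaB motif in 1 of 2 promoters of Zc3h12c and in 8.46% of all. The CRE TGACGTCA, present in 1.79% of all promoters, was not found in these windows, and Zfp36l2 has no entry in the table used.

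The regulators act with partners. Among the other members of the TTP and Regnase families and their close relatives, 3 of 5 genes passed the filter and all 3 rose. They were Zc3h12d, which encodes Regnase-4, from 15.1 ± 5.80 to 55.6 ± 6.09 CPM (SD, n = 4, log2 change 1.87), N4bp1, a ribonuclease cut by MALT1, from 107 ± 22.3 to 355 ± 77.0 CPM (1.73), and Khnyn, a cofactor of the antiviral protein ZAP, from 33.9 ± 1.68 to 63.7 ± 6.06 CPM (0.91). Zfp36l3 and Zc3h12b stayed below the filter, Zc3h12b with 12, 19, 8 and 20 counts in vehicle and 1, 5, 0 and 0 in LPS libraries. With no filter edgeR called 3 of the 5 higher and 1 lower, as did DESeq2. Over all genes these fits called 4222 and 4829 higher, and 5186 and 4918 lower. Of all genes that passed the filter 30.3% were higher and 33.8% lower.

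Signalling proteins switch these regulators on and off. Of 16 genes listed as upstream regulators or partners, 10 were higher and 2 lower (62.5% and 12.5%, against 30.3% and 33.8% of all tested genes). Their median log2 change was 0.53. With library totals 5 were higher and 8 lower, with upper quartile scaling 9 and 4, and with a replicate block 9 and 3. The list also held Upf1 and the adaptor genes Ywhab, Ywhaz and Ywhae. These Ywha genes were among the 10 higher (log2 change 0.30, 0.84 and 0.76), but Ywhab was not called with the replicate block (edgeR adjusted p = 0.0503). Dusp1, the phosphatase that switches off p38 and so activates TTP, was at 22.6, 28.7, 23.2 and 30.7 CPM in vehicle and at 412, 867, 991 and 880 CPM in LPS libraries (log2 change 4.90 ± 0.29, SE, edgeR adjusted p = 9.47e-07). Every LPS library was more than 10 times the highest vehicle library. Mapkapk2, the kinase MK2 that phosphorylates TTP, and Malt1, the protease that cleaves Regnase-1 and the Roquins, rose by 1.56 and 2.14 on the log2 scale. Mapk14, which encodes p38α, and Irak1, a kinase of the receptor complex, fell by 0.72 and 0.96.

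The decay machinery itself had both higher and lower genes, as did all tested genes, of which 30.3% were higher and 33.8% lower. With library totals, 1988 of all tested genes were higher and 8457 lower. In CCR4-NOT, the deadenylase that TTP and the Roquins recruit, 3 of 11 genes were higher (27.3%) and 2 lower (18.2%). The median log2 change was 0.22. Cnot4 rose by 1.03 and Cnot7, a catalytic subunit, by 0.87 (0.18 and not called with library totals), while Cnot6l, another catalytic subunit, fell by 1.22. This count depended on the setting, since 2 were higher and 1 lower with a replicate block, 7 higher and 1 lower without both libraries numbered 3, and 1 higher and 9 lower with library totals. Cnot10, at -0.29, was called (edgeR adjusted p = 0.0314) but lost its call in 11 alternatives, the replicate block among them (edgeR adjusted p = 0.0662).

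Among deadenylation adaptors and tail-modifying enzymes, 2 of 9 genes were higher and 3 lower (22.2% and 33.3%). Of all tested genes 30.3% were higher and 33.8% lower. With library totals 2 of the 9 were higher and 7 lower. Btg2, which activates the deadenylase, rose by 1.31 and Tut7, a uridylyltransferase that marks shortened tails, by 1.15, whereas Parn, a poly(A)-specific ribonuclease, fell by 1.55. Tut4, a related uridylyltransferase, fell by 0.75. Of 12 decapping genes 5 were higher and 1 lower (41.7% and 8.33%). The rises were led by Pnrc1 (0.96) and Dcp1a (0.83, and 0.15 and not called with library totals), with Dcps, the scavenger of the cap, at -1.07. With library totals 1 of the 12 was higher and 6 lower. Of 15 tested genes of the exosome and its SKI cofactor, which degrade the body of the mRNA from the 3′ end, 9 were lower and 1 higher, with a median of -0.38, and with library totals 14 were lower and 0 higher. Exosc5 fell by 1.38 and Exosc7 by 1.27, and Hbs1l, a ribosome rescue gene linked to the SKI complex, stood at 0.62 and at -0.07 with library totals.

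Among 22 other RNA-binding proteins that act on mRNA stability, 6 were higher and 8 lower (27.3% and 36.4%), close to the 30.3% and 33.8% of all tested genes. Their median log2 change was -0.32, and with library totals 2 were higher and 16 lower. Igf2bp2, a reader of modified mRNA, was at 22.2, 29.1, 26.3 and 26.1 CPM in vehicle and at 262, 476, 505 and 431 CPM in LPS libraries. Its log2 change of 4.01 ± 0.22 (SE, n = 4 per group, edgeR adjusted p = 6.2e-07) exceeded the estimate for each of the 10 regulators, a difference that was not tested, and every LPS library lay far above every vehicle library. Rbms1 rose by 1.15 and Celf2 fell by 1.20. The neuronal relative of HuR, Elavl4, fell by 1.92, and the summed level of 5 neuronal markers was 12.5 to 43.1 CPM in vehicle and 2.85 to 16.0 CPM in LPS libraries, whose part in that fall was not tested.

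The transcripts these proteins are known to control rose in the same libraries. Of 18 such targets, 14 were higher and 1, Icos, was lower when edgeR was run with no filter on low counts. DESeq2 called 14 higher and 1 lower as well. Over all genes, edgeR with no filter called 4222 higher and 5186 lower, and DESeq2 4829 and 4918. The filter used elsewhere kept 15 of the targets, and of all genes it kept 30.3% were higher and 33.8% lower. It admitted Csf2, Il6, Il12b and Cxcl1 through their counts in the LPS libraries, having under 10 counts in at least 1 vehicle library each, and it dropped Icos, Il23a and Tnfrsf4. Among the 11 targets with at least 10 counts in every library 10 were higher, and the remaining one was Tfrc (log2 change -0.14, edgeR adjusted p = 0.399), which was lower with library totals (-0.80). The list was drawn up with earlier results of these data known. Icos, a costimulatory receptor on T cells, had 16, 20, 9 and 12 counts in vehicle and 0, 0, 2 and 0 in LPS libraries.

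Tnf was at 32.9, 36.1, 28.7 and 30.7 CPM in vehicle and at 829, 607, 412 and 731 CPM in LPS libraries (log2 change 4.33 ± 0.23, SE, edgeR adjusted p = 5.06e-07). Ptgs2, the inducible cyclooxygenase, went from 3.73 to 12.5 CPM in vehicle to between 9740 and 13000 CPM in LPS libraries. Both transcripts, which are rich in the AU element, stood far above vehicle in the same libraries in which Zfp36 was 6.47-fold up. A link between these levels was not tested. Il6, a target of Regnase-1 and of Arid5a, had 12, 0, 2 and 0 counts in vehicle and 10560, 5510, 16633 and 5436 counts in LPS libraries, and its log2 change went from 11.97 to 14.16 without vehicle replicate 1.

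Csf2 had no count in any vehicle library and 51, 13, 48 and 13 counts in LPS libraries, which is at least 16.3-fold higher against a floor of 3 counts per vehicle library. Il12b had 2 counts in all vehicle libraries together and 5117 in LPS libraries, a ratio of 4000 with an exact 95% interval of 1110 to 33000 that covers counting error only. LPS replicate 3 alone held 3863 of these counts, and without it the log2 change fell from 11.47 to 10.09. Stat3, which Arid5a protects, rose by 2.21, Rel by 1.32 and Nfkbid by 0.79, the latter not called with library totals (0.13). Il10, Ccl3, Cxcl1, Cxcl2, Ier3 and Nfkbiz rose by 7.78, 5.45, 6.77, 7.20, 5.18 and 3.60 on the log2 scale. For Cxcl1 the value was 5.66 without LPS replicate 1 and 8.13 without vehicle replicate 1.

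**Figure D5:**
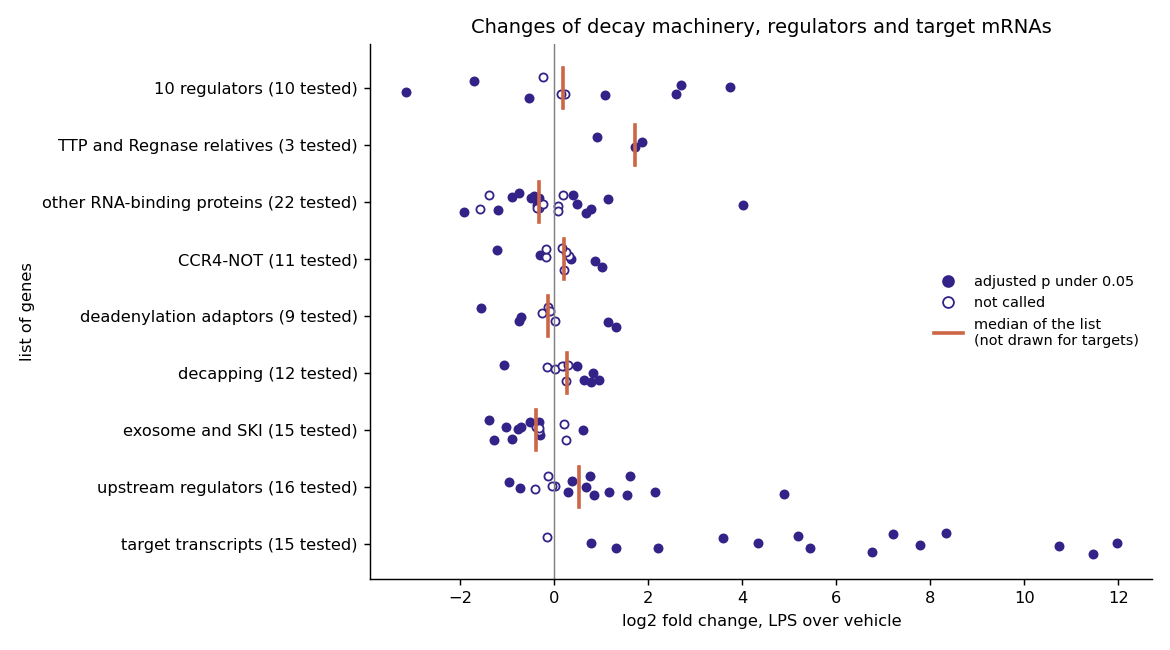
Log2 fold change, LPS over vehicle, of each tested gene in the list of 10 regulators, their relatives, other RNA-binding proteins, decay machinery, upstream regulators and target transcripts, filled where the adjusted p was under 0.05, with the median of each list except the targets as an orange line. The highest changes are those of targets, the medians of the decay machinery lie between -0.38 and 0.28, and the position of Csf2, with no count in vehicle, depends on the fit.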

How the data were processed

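RNA of 8 libraries, 4 per group, was sequenced. The authors aligned reads to GRCm38 with GSNAP, kept unique alignments in HTSeqGenie and deposited raw counts per Ensembl gene, without normalization. Kit and sequencer differ between the sample labels (TruSeq Stranded mRNA, NovaSeq) and the published methods (TruSeq RNA, HiSeq). The annotation release and the strand setting of counting are not given in the sources used here. Symbols were found for 52489 of 52636 identifiers (GENCODE vM21).

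Counts were tested with edgeR 4.0.16 (R 4.3.3) with TMM scaling, filterByExpr (minimum count 10, minimum total 15), a two-sided quasi-likelihood test and Benjamini-Hochberg adjustment at 0.05. The SE of a log2 change was its size divided by the square root of F. CPM used TMM-scaled totals. Levels per kb used 1 transcript per gene (best APPRIS rank, then longest 3′UTR). Log2 ratios of counts (0.5 added) were tested by two-sided exact permutation, adjusted over 6 pairs. The fits were tested on simulated data in which few genes changed, equally up and down. That test does not bear on the choice of scaling here.

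The 10 genes and all lists were chosen with earlier results of these data known. Named genes were the 10 regulators, all targets, the 2 largest called changes per direction of each other list and the 3 nearest genes of Zfp36, Zc3h12a and Arid5a. Khnyn and Mapkapk2 were added after their values were seen. Upf1, Ywhab, Ywhaz, Ywhae, Zfp36l3, Zc3h12b and single cell type markers are also named outside this rule. Sequences came from GENCODE and RefSeq.

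Libraries of the same number deviated together from their group means over 8382 genes (Pearson r 0.361, 0.183, 0.183 and 0.130 for numbers 1 to 4). Numbers 2 and 4 were not told apart, with r 0.154 for vehicle 2 with LPS 4 and 0.141 for vehicle 4 with LPS 2. Libraries 2 and 4 were also the closest within each group, with a chi-square per degree of freedom of 11.6 in vehicle and 7.05 in LPS. The next lowest values were 37.5 and 61.4, and whether libraries 2 and 4 share a culture is not stated. All same-number values were over 0.1, so the numbers were treated as pairs in an alternative fit with a replicate block. Other alternatives were DESeq2 1.42.0, other scalings and filters, stricter thresholds and leaving out each library. Scaling by library totals, leaving out both libraries numbered 3 and exon-union lengths were added after seeing the data.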

Additional observations from a re-analysis of the deposited data

Results flagged for a closer look

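In LPS libraries the log2 ratio of Zfp36l2 to Zfp36 was -6.22, -6.32, -5.16 and -6.41, and that of replicate 3 lay apart from the rest. Its gap to the nearest library was 0.847 of the whole range of the group, above Dixon's 95% critical value for 4 samples. This was 1 of 32 groups examined, and chance alone marks about 1 group in 20. In the same library Zfp36l2 was the highest and Zfp36 the lowest of the 4 LPS libraries. LPS replicate 3 was also the most deeply sequenced library, with 30604447 counts, and had the lowest TMM factor, 0.701. Their part in the ratio was not tested.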

How the results depend on the processing

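The calls of Zfp36, Zfp36l1, Zfp36l2, Zc3h12a, Zc3h12c, Khsrp and Arid5a kept direction and threshold under all 16 alternative fits each. The replicate block changed no call among the 10 regulators. Of the other genes named here, it ended the calls of Cnot10 and Ywhab (edgeR adjusted p = 0.0662 and 0.0503). Requiring an absolute log2 change of at least 1 left 5222 of 8877 called genes, and Khsrp did not reach it. Rc3h2 went to -0.47 and Elavl1 to -0.53 with library totals, Hbs1l to -0.07, and Elavl1 to -0.01 with upper quartile scaling, and the cause was not tested. Compared by group medians, the differences of the log2 ratios to Zfp36 were -4.61 for Zfp36l1 and -6.15 for Zfp36l2, that of Zc3h12c to Zc3h12a was -2.66, of Rc3h2 to Rc3h1 0.42 and of Khsrp to Elavl1 -0.60, all with an adjusted exact permutation p of 0.0571. With the replicate block, taken as sign flips of 4 pairs, the differences were -4.43, -5.87, -2.64, 0.46 and -0.70, at an exact p of 0.125 that is the smallest 4 pairs allow. Cnot10 lost its call in 11 alternatives. With the block 9044 genes were called in all. Rc3h1 was called without LPS replicate 3 (-0.39), without both libraries numbered 3 (-0.35), with upper quartile scaling (-0.39) and with library totals (-0.92). Depth does not limit the 10 regulators, the lowest of which had 195 counts in a library. It limits Csf2, Il12b and Il6, whose vehicle counts were near 0.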
